A study of Mus musculus with 19 samples.

Results

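The endoplasmic reticulum (ER) chaperones described here are 10 genes, Hspa5, Hsp90b1, Calr, Canx, Pdia3, Pdia4, Pdia6, Sdf2l1, Dnajb11 and Hyou1, among 49592 genes counted in the mouse striatum. They were taken by gene symbol from the deposited tables, and all 10 passed the filter on low counts that left 21513 genes to test. They were put forward with results of these same mice known, in which several had lower counts after amphetamine, so the amphetamine comparisons below describe the genes and carry no test of them. Striatal RNA was sequenced from 19 male mice of the strain labelled D2RCre_floxCas9-EGFP, aged 4 months. The 4 amphetamine KO mice and the 5 saline KO mice (labelled PFC_D2R-KO) had received AAV5 D2R-sgRNA in the medial prefrontal cortex. The 5 amphetamine control mice and the 5 saline control mice had received AAV5 syn-mCherry there. All 4 groups therefore carried the D2R-driven Cre and the Cre-dependent Cas9-EGFP, and all had surgery, followed 3 weeks later by 5 days of saline injections with locomotion recorded for 30 min. On day 9 the challenge was amphetamine at 3 mg/kg (intraperitoneal) or saline, and the labels give 90 min to sacrifice for the amphetamine mice. Guides can act only in D2R-Cre cells of the prefrontal cortex that took up virus, which is another region than the one sequenced, so striatal counts of the D2 receptor gene do not check the deletion.

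Proteins that enter the secretory pathway fold inside the ER, where BiP (the Hsp70 encoded by Hspa5) and GRP94 (the Hsp90 encoded by Hsp90b1) bind unfolded chains, calreticulin (Calr) and calnexin (Canx) hold proteins by their sugar chains, and protein disulfide isomerases (Pdia3, Pdia4, Pdia6) form and reshuffle disulfide bonds. When unfolded protein builds up in the ER, the unfolded protein response raises transcription of these genes through the factors ATF6 and XBP1. A known target of these factors is the ER stress element (ERSE), a CCAAT box bound by NF-Y and, after a fixed gap, a CCACG box. Neurons depend on this machinery for receptors, channels and secreted peptides.

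RefSeq promoter windows, from 250 bases before to 50 bases after the annotated start on GRCm38.p6, were at hand for 9 of the 10 genes, and Hyou1 had none. An exact ERSE, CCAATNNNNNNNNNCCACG on either strand, was found in 5 of these 9 windows (55.6%) and in 39 of 32851 windows of all genes (0.119%). The windows of all genes include these 9. The unfolded protein response was already known to act on ER chaperone genes, so these shares describe the windows and test nothing. The sites of the 5 genes are shown because the 3 genes called after amphetamine further down, Hspa5, Hsp90b1 and Calr, are among them. Each is written 5′ to 3′ on the strand that reads CCAAT first, with 5 bases on each side, and capitals mark the CCAAT and CCACG boxes.
Hspa5, chr2:34772020-34772048: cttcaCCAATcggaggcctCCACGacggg
Calr, chr8:84847070-84847098: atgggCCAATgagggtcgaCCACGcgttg
Hsp90b1 far site, chr10:86705633-86705661: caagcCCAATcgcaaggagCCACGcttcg
Hsp90b1 near site, chr10:86705528-86705556: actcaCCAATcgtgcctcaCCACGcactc
Canx, chr11:50325795-50325823: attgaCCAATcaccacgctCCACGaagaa
Pdia6, chr12:17266486-17266514: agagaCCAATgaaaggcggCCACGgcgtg
The 9 bases between the boxes differed among the 6 sites, and all 6 lay before the annotated start, from base -212 to base -47. The Calr site and the near Hsp90b1 site lie on the strand opposite to the gene, and the other 4 on the gene's own strand.

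Hsp90b1 was the only one of the 9 with 2 such sites, and 180 bases of its promoter that hold both are shown for their arrangement (GRCm38.p6, chr10:86705515-86705694, minus strand, which is the strand of the gene). Capitals mark the boxes of both sites, the second of which reads CGTGG and ATTGG on this strand.
Hsp90b1 promoter: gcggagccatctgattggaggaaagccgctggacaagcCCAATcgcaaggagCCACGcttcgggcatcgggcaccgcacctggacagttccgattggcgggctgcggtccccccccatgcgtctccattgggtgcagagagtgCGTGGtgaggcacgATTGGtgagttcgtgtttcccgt
The second form of the element, ERSE-II (ATTGGNCCACG), was in the Dnajb11 window alone of the 9, against 12 of all windows (0.0365%), and lies 8 to 18 bases after the annotated start.
Dnajb11, chr16:22857847-22857867: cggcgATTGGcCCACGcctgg
The core of the XBP1 element, TGACGTGG, was in 0 of the 9 windows and in 0.676% of all windows. The short boxes taken alone were common everywhere. CCAAT was in 9 of 9 windows and in 37.4% of all windows, and CCACG in 8 of 9 and in 32.8%. These motifs overlap each other by construction, since an ERSE holds both boxes. Pdia3, Pdia4 and Sdf2l1 had no exact match to the 3 longer motifs in these windows. For 8 of the 9 genes the bases after the annotated start were found in a GENCODE transcript of the gene, and for Pdia4 they were not, so its start has no such check. A match is a description of the letters and not a measured binding site.

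**Figure D1:**
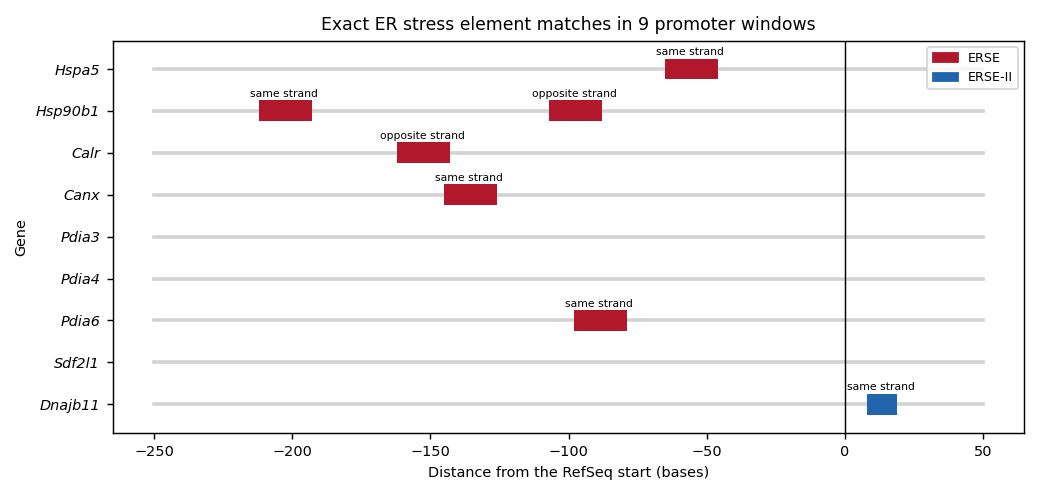
Positions of exact ERSE (red) and ERSE-II (blue) matches in the RefSeq promoter windows of 9 ER chaperone genes, in bases from the annotated start at 0, with the strand of each match relative to its gene. The 6 ERSE matches lie before the start and the single ERSE-II match, in Dnajb11, lies after it.

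Library totals ran from 72759747 to 83149920 counts in amphetamine KO, from 75449097 to 85536346 in saline KO, from 57003408 to 80857642 in amphetamine control and from 65578294 to 75756345 in saline control mice. The least counted of the 10 genes, Sdf2l1, had 436 to 1028 counts per library and Canx, the most counted, had 29312 to 49397. All 12 markers listed for striatal projection neurons averaged above 1 CPM (a count scaled to the size of its library, after TMM normalisation). So did all 12 cortical projection neuron markers, 7 of 10 hypothalamic and 7 of 8 choroid plexus markers, so that level does not set striatal tissue apart. Amphetamine KO libraries 2 and 3, saline KO library 3, amphetamine control library 3 and saline control library 5 stood apart from the rest in earlier results of these data. The edgeR calls in the contrast averaged over both genotypes are given with and without them. DESeq2 calls and counts of genes whose groups do not overlap are given with all libraries only. In bulk tissue, fewer cells of a type and less RNA per cell cannot be told apart.

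Per unit of gene length, the 10 genes covered a wide range in the striatum. In the authors' FPKM values (fragments scaled by gene length and library size), Hsp90b1 averaged 133 ± 15.8 FPKM (SD over 19 mice), Calr 128 ± 16.6 and Canx 115 ± 8.62. Hsp90b1 exceeded Calr in 12 of 19 mice, and their means differed by 5.00 FPKM, less than the SD of either. Calr exceeded Canx in 16 of 19 mice and Hsp90b1 exceeded Canx in 18, with ranges that overlapped. Canx exceeded Hspa5, at 78.2 ± 9.69 FPKM, in 19 of 19 mice and their ranges did not overlap. Below Hspa5 came Pdia3 at 70.0 ± 7.60 and Pdia6 at 46.6 ± 6.40 FPKM, each under its neighbour in 19 of 19 mice, with ranges that overlapped between Hspa5 and Pdia3 and between Pdia3 and Pdia6. Hyou1 at 23.3 ± 2.52 FPKM lay wholly below the range of Pdia6. Dnajb11 followed at 19.3 ± 1.40, Pdia4 at 17.2 ± 2.01 and Sdf2l1 at 8.10 ± 1.72 FPKM. Among the 22852 genes of that table, Hsp90b1 ranked 337th and Sdf2l1 7171st by mean FPKM.

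After amphetamine, RNA of the ER chaperones was on average lower than after saline in the striatum of both genotypes, with Pdia4 in control mice the exception. In KO mice all 10 genes had a log2 fold change below 0, with a median of -0.31, where 51.1% of all genes tested were below 0 and their median was -0.01. In control mice 9 of 10 were below 0, with a median of -0.17, where 51.6% of all genes were. In the mean of the 2 genotypes' differences, called the averaged contrast below, the median of the 10 genes was -0.24. The genes were put forward with these comparisons known, so the values describe them.

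Hspa5 encodes BiP, which binds unfolded chains and also keeps the sensors of the unfolded protein response inactive. Its CPM was 257, 273, 271 and 235 in amphetamine KO mice, against 339, 332, 350, 334 and 293 in saline KO mice. In control mice it was 282, 253, 242, 245 and 238 CPM after amphetamine, against 309, 305, 296, 299 and 299 after saline. Hspa5 was the only one of the 10 genes whose amphetamine and saline mice were separate in both genotypes, every amphetamine mouse being the lower. The log2 fold change was -0.35 ± 0.0705 (SE) in KO mice and -0.26 ± 0.0662 in control mice.

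The partners of BiP were less uniform. Dnajb11 encodes a J-domain co-chaperone that hands unfolded chains to BiP, Sdf2l1 encodes a protein that forms a complex with it, and Hyou1 encodes a nucleotide exchange factor of BiP. Sdf2l1 had the largest fold change of the 10 genes in KO mice and the lowest level, at 7.85, 6.01, 7.12 and 8.14 CPM in amphetamine KO mice, against 12.8, 10.4, 12.8, 9.24 and 10.1 CPM in saline KO mice. In control mice Sdf2l1 was at 8.86, 8.85, 8.03, 7.78 and 6.98 CPM after amphetamine, against 9.36, 10.5, 8.88, 10.8 and 6.23 CPM after saline. The KO groups did not overlap, whereas in control mice saline mouse 5 lay below every amphetamine mouse. The log2 fold change of Sdf2l1 was -0.60 ± 0.147 in KO mice and -0.18 ± 0.137 in control mice.

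Dnajb11 and Hyou1 had the smallest fold changes in KO mice. Dnajb11 averaged 45.7 ± 4.31 CPM (SD) in amphetamine KO and 50.3 ± 2.15 in saline KO mice, and 47.4 ± 2.29 in amphetamine control and 50.0 ± 4.13 in saline control mice. The Dnajb11 groups overlapped in both genotypes, with log2 fold changes of -0.14 ± 0.0736 in KO and -0.08 ± 0.0693 in control mice. Hyou1 averaged 110 ± 7.38 CPM in amphetamine KO and 122 ± 10.2 in saline KO mice, and 105 ± 10.4 in amphetamine control and 121 ± 13.5 in saline control mice. Hyou1 was the only one of the 10 with a lower fold change in control mice (-0.20 ± 0.0861) than in KO mice (-0.16 ± 0.0914), and its groups overlapped in both.

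Hsp90b1 encodes GRP94, which folds integrins and Toll-like receptors among other clients. It was at 373, 368, 378 and 345 CPM in amphetamine KO mice, against 515, 478, 497, 502 and 456 CPM in saline KO mice. In control mice it was at 451, 399, 399, 376 and 374 CPM after amphetamine, against 447, 453, 451, 467 and 403 after saline. In KO mice the highest amphetamine mouse (378 CPM) lay below the lowest saline mouse (456 CPM), whereas in control mice amphetamine mouse 1 lay among the saline mice. Its log2 fold change was -0.42 ± 0.0706 in KO mice and -0.15 ± 0.0662 in control mice.

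The lectin chaperones calreticulin, a soluble protein that also buffers calcium in the ER, and calnexin, its membrane-bound relative, retain glycoproteins until they are folded. Calr was at 256, 208, 270 and 246 CPM in amphetamine KO mice, against 335, 326, 329, 323 and 311 CPM in saline KO mice. In control mice Calr was at 257, 254, 242, 258 and 248 CPM after amphetamine, against 295, 323, 280, 291 and 254 CPM after saline. The KO groups did not overlap, and in control mice saline mouse 5 lay within the amphetamine range. The log2 fold change of Calr was -0.41 ± 0.0771 in KO and -0.20 ± 0.0723 in control mice. Canx averaged 462 ± 25.7 CPM in amphetamine KO and 534 ± 21.0 in saline KO mice, without overlap, and 464 ± 31.8 in amphetamine control and 498 ± 18.3 in saline control mice, with overlap. Its log2 fold change was -0.21 ± 0.0670 in KO and -0.10 ± 0.0630 in control mice.

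Among the disulfide isomerases, Pdia3 (ERp57) works on glycoproteins held by calreticulin and calnexin. Pdia3 averaged 181 ± 9.995 CPM in amphetamine KO and 221 ± 13.7 in saline KO mice, without overlap, and 175 ± 15.6 in amphetamine control and 196 ± 5.22 in saline control mice. In the amphetamine control group 4 mice lay between 166 and 170 CPM and mouse 1 was at 203 CPM. The log2 fold change of Pdia3 was -0.29 ± 0.0710 in KO and -0.17 ± 0.0667 in control mice.

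Pdia6 and Pdia4 encode isomerases found together with BiP. Pdia6 averaged 94.3 ± 13.0 CPM in amphetamine KO and 118 ± 10.6 in saline KO mice, with log2 fold changes of -0.32 ± 0.0927 in KO and -0.17 ± 0.0871 in control mice. Its KO groups overlapped through amphetamine mouse 3, at 114 CPM, while the other 3 amphetamine KO mice lay between 86.6 and 89.6 CPM. Pdia4 averaged 38.6 ± 1.87 CPM in amphetamine KO and 45.9 ± 3.37 in saline KO mice, with a log2 fold change of -0.25 ± 0.108. These groups were separate by a narrow gap, with the highest amphetamine KO mouse at 40.7 CPM and the lowest saline KO mouse at 40.8 CPM. In control mice Pdia4 was at 40.5 ± 0.835 CPM after amphetamine and 40.0 ± 7.50 after saline, a log2 fold change of 0.02 ± 0.101. Saline control mouse 5 was at 26.7 CPM and the other 4 between 41.9 and 44.9, and without that mouse the log2 fold change of Pdia4 in control mice was -0.10.

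**Figure D2:**
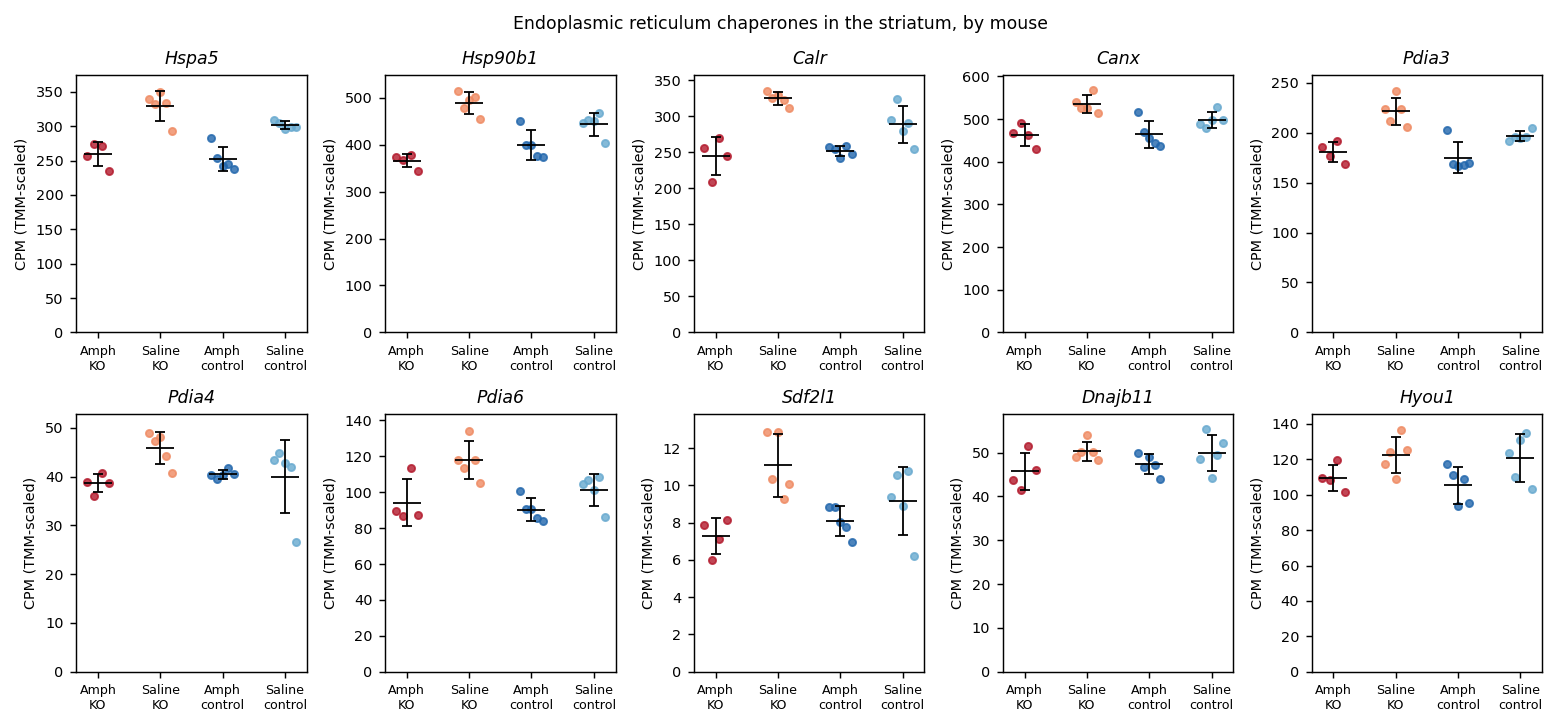
TMM-scaled CPM of the 10 ER chaperone genes, 1 panel a gene with its own axis from 0, with 1 point a mouse and the group mean ± SD in black. In KO mice 7 of the 10 genes have every amphetamine mouse below every saline mouse, Pdia4 by a narrow gap, and in control mice Hspa5 does.

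Every amphetamine KO mouse was below every saline KO mouse for 7 of the 10 genes, which is seen for 2.84% of all genes tested, and every amphetamine control mouse below every saline control mouse for 1, Hspa5, which is seen for 1.68%. Summed over the 10 genes, the level was 1706 to 1906 CPM in amphetamine KO mice, against 2110 to 2309 CPM in saline KO mice. The sum was 1737 to 2027 CPM in amphetamine control mice, against 1934 to 2126 CPM in saline control mice. The sums did not overlap in KO mice, and in control mice amphetamine mouse 1 lay within the saline range.

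**Figure D3:**
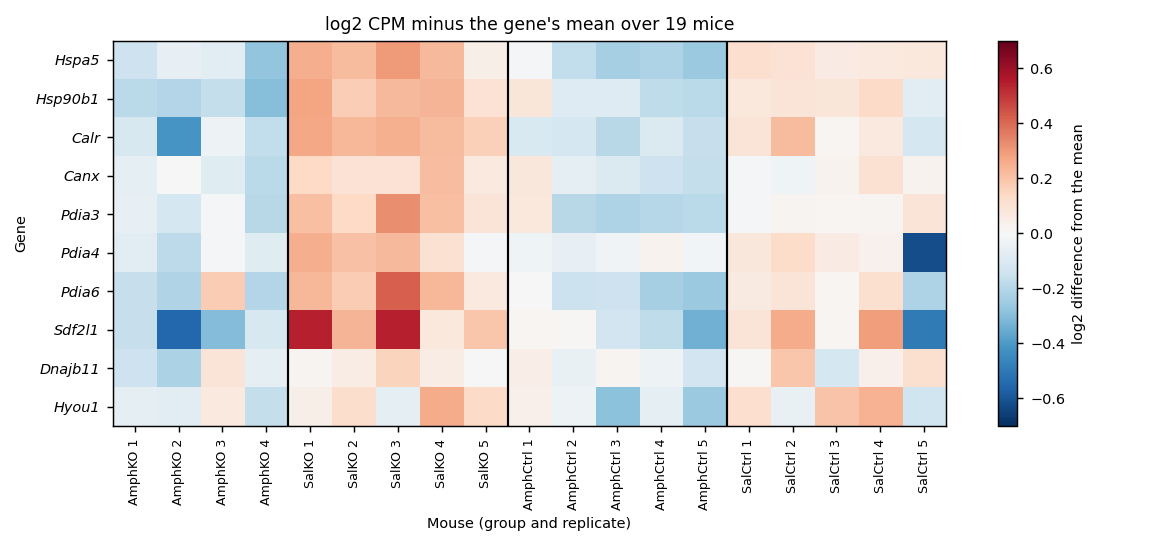
Difference of log2 CPM from each gene's mean over 19 mice, with genes in rows and mice in columns, grouped from left to right as amphetamine KO, saline KO, amphetamine control and saline control. The saline KO columns are mostly red (above the mean) and both amphetamine groups mostly blue (below it). Saline control mouse 5 is blue for Pdia4 and Sdf2l1, and less strongly for Hsp90b1, Calr, Pdia6 and Hyou1.

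With edgeR's quasi-likelihood test and Benjamini-Hochberg adjustment over 21513 genes, 0 of the 10 genes were called at an adjusted p under 0.05 in the amphetamine comparison of KO mice, where 0.00465% of all genes were called. In control mice the count was also 0, against 0.00465%. At an unadjusted p under 0.05 there were 8 of 10 in KO mice, against 12.1% of all genes, and 5 of 10 in control mice, against 11.8%. DESeq2 called 5 of the 10 in KO mice (Hspa5, Hsp90b1, Calr, Pdia3 and Sdf2l1), against 0.45% of the genes it tested, and Hspa5 alone in control mice, against 1.0%. In KO mice edgeR called Hsp90b1 when genes were kept at 1 CPM or more in at least 4 libraries, against 0.0191% of all genes, and 3 of the 10 without saline control mouse 5, against 0.135%. In the averaged contrast edgeR called 3 of the 10, all lower after amphetamine, against 0.149% of all genes in either direction and 0.0976% in the lower direction. They were Hspa5 at -0.30 ± 0.0483, Calr at -0.30 ± 0.0528 and Hsp90b1 at -0.28 ± 0.0483 on the log2 scale. By p-value they ranked 4th, 10th and 6th of 21513 genes, which only describes them, since they were put forward with these comparisons known. The call on these 3 genes ended when amphetamine control mouse 3, amphetamine control mouse 5 or amphetamine KO mouse 4 was left out, where 0.014%, 0.014% and 0.0137% of all genes were called. Without saline control mouse 3, saline control mouse 4 or saline KO mouse 4, 1 of the 10 was called, against 0.0233% of all genes in each of these fits. Conversely, 7 of 10 were called without saline control mouse 5, against 1.25% of all genes, so calls were more frequent over all genes as well. The count was also 7 of 10 without the 5 libraries that stood apart, against 2.13% of all genes in that smaller fit. DESeq2 called 7 of the 10 on all libraries, against 2.23% of the genes it tested.

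In the authors' deposited tables, 4 of the 10 genes were called lower in the KO amphetamine comparison, against 0.665% of the genes with an adjusted p in either direction and 0.259% lower. They were Hsp90b1, Calr, Sdf2l1 and Hspa5, with log2 fold changes of -0.41, -0.40, -0.60 and -0.34 in the authors' deposited table. In the authors' deposited table of control mice Hspa5 was the 1 gene of the 10 called, at a log2 fold change of -0.26, against 4.21% of genes in either direction and 1.99% lower. These tables and the fits above use the same mice.

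The genotype comparisons share mice with the amphetamine comparisons known when the genes were put forward. Under amphetamine, levels in KO and control mice were close. The 10 log2 fold changes of KO over control ran from -0.15 ± 0.146 (Sdf2l1) to 0.06 ± 0.0923 (Pdia6), with a median of -0.02 and 6 of 10 below 0. edgeR called 0 of the 10, against 0.0% of all genes, and the lowest adjusted p was 0.476, for Hsp90b1 at -0.13 ± 0.0703. DESeq2 also called 0 of the 10, against 0.453%, and 0 of the 10 had an unadjusted edgeR p under 0.05, against 12.8%. None of the 10 had separate groups, where all KO mice were lower for 3.71% and higher for 3.08% of all genes.

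Under saline all 10 genes were above 0 in KO over control mice, where 49.0% of all genes were below 0, and the median log2 fold change was 0.16. Sdf2l1 had the largest, at 0.27 ± 0.137, followed by Pdia6 at 0.21 ± 0.0870 and Pdia4 at 0.20 ± 0.101. Dnajb11 and Hyou1 were nearly level, at 0.01 ± 0.0693 and 0.02 ± 0.0860. None passed edgeR's test (lowest adjusted p 0.614), where 0.0% of all genes passed by edgeR and 0.0% by DESeq2, and 4 of 10 had an unadjusted p under 0.05, against 7.94% of all genes. The groups were separate for Pdia3 alone, at 224, 212, 242, 223 and 206 CPM in saline KO mice, against 191, 195, 195, 195 and 205 CPM in saline control mice, which is seen for 0.511% of all genes in that direction. The gap there was narrow, from 206 CPM in the lowest KO mouse to 205 CPM in the highest control mouse. In the authors' deposited table of this comparison 0 of the 10 were called, against 0.00439% of genes, and their adjusted p-values lay between 0.90 and 0.996. These higher saline levels in KO mice and the more negative fold changes after amphetamine in KO mice rest on the same 5 saline KO mice.

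The difference of the amphetamine response, KO minus control, was below 0 for 9 of 10 genes, with a median of -0.14, where 49.1% of all genes were below 0. It was -0.43 ± 0.200 for Sdf2l1 (edgeR adjusted p 0.539), -0.27 ± 0.0965 for Hsp90b1 (adjusted p 0.519), -0.27 ± 0.148 for Pdia4 (adjusted p 0.566) and 0.04 ± 0.125 for Hyou1 (adjusted p 0.927). The test called 0 of the 10, against 0.0% of all genes, and 2 of 10 had an unadjusted p under 0.05, against 9.25%. DESeq2 called 0 of the 10 as well, against 0.0731%. A larger response in KO than in control mice was therefore not shown for any of the 10 genes.

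**Figure D4:**
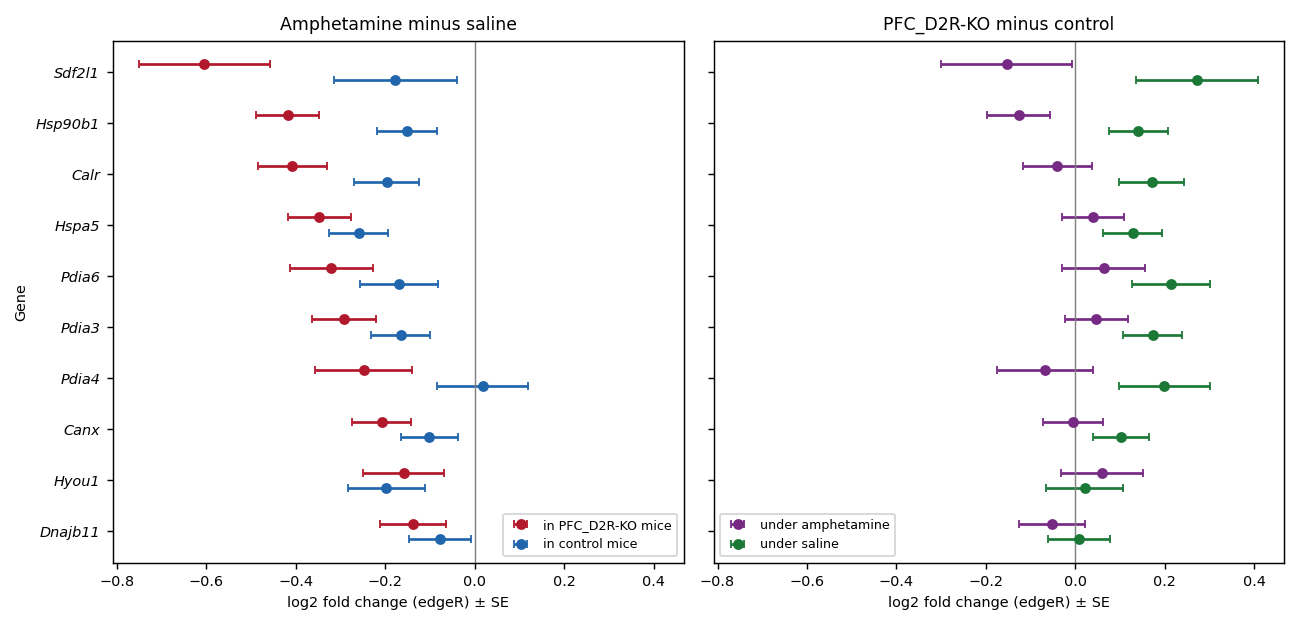
edgeR log2 fold changes ± SE of the 10 ER chaperone genes, for amphetamine minus saline in KO (red) and control (blue) mice on the left, and for KO minus control under amphetamine (purple) and saline (green) on the right. On the left all points but Pdia4 in control mice lie below 0, and on the right the saline points lie above 0 and the amphetamine points on both sides of it.

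Among mice of the same group, the ER chaperones varied together in part. After group means were subtracted, Pearson correlations of log2 CPM between the 45 gene pairs ran from -0.19 to 0.79 over 19 mice, with a median of 0.40, 21 pairs above 0.5 and 6 below 0. Hspa5 and Pdia3 were the closest pair (r = 0.787, Spearman's rho = 0.714), and Hspa5 also followed Hsp90b1 (r = 0.743, rho = 0.647). Hsp90b1 and Pdia6 had r = 0.751 (rho = 0.737), and 0.945 in the 14 libraries without the 5 that stood apart. Pdia4 and Sdf2l1 had r = 0.756 (rho = 0.621), but 0.351 without those 5, among them saline control mouse 5, in which both were lowest of their group. Calr and Canx, the lectin pair, had r = -0.186 (rho = -0.00877), and 0.0456 without those 5. Pdia6 and Hsp90b1 had the highest mean correlation with the other 9 genes, 0.561 and 0.560, and Dnajb11 the lowest, 0.231. These are descriptions, since all genes of a mouse share its library, depth and dissection.

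**Figure D5:**
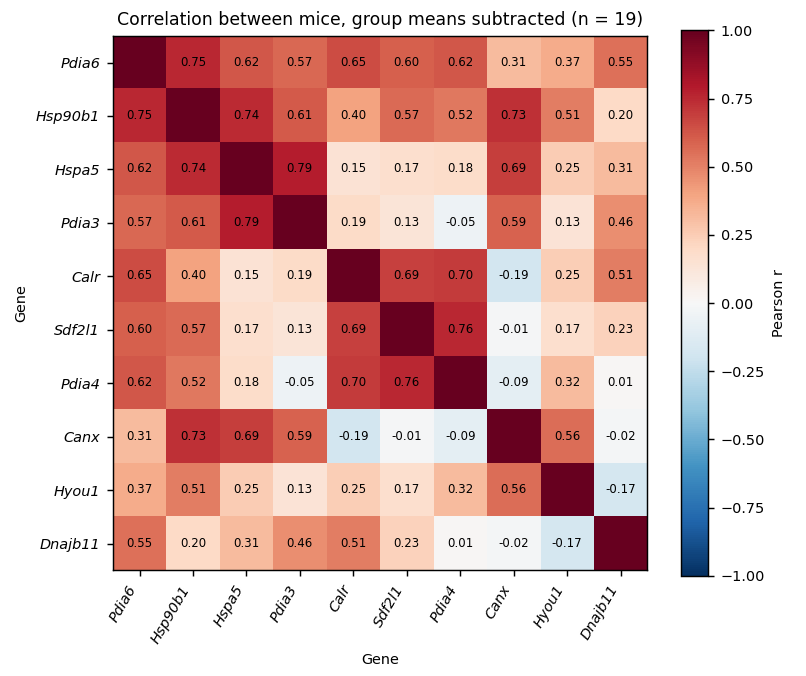
Pearson correlation of log2 CPM between the 10 ER chaperone genes over 19 mice after subtraction of group means, ordered by mean correlation. Pdia6, Hsp90b1, Hspa5 and Pdia3 form the block of high values at the top left, and Calr, Sdf2l1 and Pdia4 a second one, with r from 0.69 to 0.76 among them, but 0.35 to 0.62 without the 5 libraries that stood apart.

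The genes whose within-group pattern was most like the mean of the 10, among 15272 genes averaging at least 1 CPM, were Hspd1 (r = 0.887), Tmem87a (0.877), Dnaja1 (0.862), Tmtc4 (0.862) and Jrkl (0.843), over 19 mice. Hspd1 encodes the mitochondrial chaperonin and Dnaja1 a cytosolic J-domain co-chaperone. In the averaged amphetamine contrast, Hspd1 stood at -0.15 ± 0.0489 and Dnaja1 at -0.16 ± 0.0455, whereas Tmem87a stood at 0.01 ± 0.0483. The most opposed were Sp2 (r = -0.841), Ndor1 (-0.841) and Pcsk7 (-0.824). The median correlation over all 15272 genes was 0.01.

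Other genes of the ER folding pathway stood closer to the median of all genes. In the averaged amphetamine contrast, where 52.5% of all genes were below 0 and their median was -0.01, the 35 other ER folding enzymes and co-chaperones had a median of -0.08, with 27 below 0 and 0 called. Manf, a secreted ER stress protein, stood at -0.20 ± 0.0730 and the proline isomerase gene Fkbp14 at -0.19 ± 0.0673. The thioredoxin-like gene Tmx2 was at -0.15 ± 0.0502.

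Of the 20 genes of glycoprotein quality control and N-glycosylation, 14 were below 0 and 0 called, with a median of -0.05. Rpn1 and Dad1, subunits of the enzyme that transfers sugar chains to proteins, stood at -0.22 ± 0.0478 and -0.24 ± 0.0678, and Ganab, the glucosidase that prepares glycoproteins for calnexin and calreticulin, at -0.16 ± 0.0423. The 20 genes of the translocon and signal peptidase had 17 below 0 and 0 called, with a median of -0.07. Srprb, a subunit of the receptor for the signal recognition particle, was at -0.16 ± 0.0521, Ssr2, of the translocon-associated complex, at -0.16 ± 0.0667, and Spcs3, of the signal peptidase, at 0.12 ± 0.0574.

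The 23 genes of ER-associated degradation had a median of -0.04, with 15 below 0 and 0 called. Derl3, of the degradation channel and a known ER stress target, was at -0.45 ± 0.126 with 0.862 ± 0.132 CPM in amphetamine KO mice and 1.29 ± 0.159 in saline KO mice. Derl1 was at -0.13 ± 0.0599 and the ubiquitin ligase gene Rnf185 at -0.10 ± 0.0445. The 17 sensors and factors of the unfolded protein response had 9 below 0 and 0 called, with a median of -0.00315. Among them, Mbtps2, the protease that releases ATF6, and Nfyb, a subunit of NF-Y, both stood at 0.17 (SE 0.0521 and 0.0643), and the stress factor gene Atf4 at -0.15 ± 0.0566. The 16 genes of KDEL receptors and ER calcium handling had 6 below 0 and 0 called, with a median of 0.01. Tmco1, a calcium leak channel of the ER, was at -0.19 ± 0.0633, Rcn2, a calcium-binding protein of the ER, at -0.15 ± 0.0715 and Itpr3, a calcium release channel, at 0.31 ± 0.132.

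Cytosolic chaperones lay as low as the ER chaperones. All 18 listed were below 0 in the averaged contrast with a median of -0.24, and 4 were called lower (Hspa8, Dnajb1, Stip1 and Ahsa1), against 0.0976% of all genes. Hspa8, the constitutive cytosolic Hsp70, averaged 1317 ± 51.6 CPM in amphetamine KO and 1690 ± 39.3 in saline KO mice, and 1294 ± 44.2 in amphetamine control and 1535 ± 59.8 in saline control mice. Its log2 fold change in the averaged contrast was -0.30 ± 0.0428. Stip1, which links Hsp70 to Hsp90, was at -0.33 ± 0.0571, and Ahsa1, an activator of the Hsp90 ATPase, at -0.26 ± 0.0466. In KO over control mice under saline the 18 cytosolic chaperones had a median of 0.15 with 0 below 0, and 0 were called. These lists were drawn up with earlier results of these data known, and no list was tested against other genes.

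Of 32 genes other than the 10 whose promoter window holds an exact ERSE, 18 passed the filter. In the averaged contrast these 18 had a median of -0.05, where all genes had -0.01, with 13 below 0 and 0 called, and they were not tested against other genes. The 5 ER chaperones with the ERSE had a median of -0.28 there, ranging from -0.30 to -0.15. The 4 with a window and no exact ERSE, among them Dnajb11 with its ERSE-II, had -0.17, ranging from -0.39 (Sdf2l1) to -0.11. These ranges overlapped, and the sets were not tested against each other. Among the 18 were other ER stress genes. Derl3, named above, had the smallest edgeR p of the 18 and stood at -0.45 ± 0.126. Creld2 was at -0.19 ± 0.0865, Dnajc3, a BiP co-chaperone, at -0.05 ± 0.0583 and Syvn1, the ligase of ER-associated degradation, at 0.07 ± 0.0495.

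Some marker lists of cell types and neighbouring tissue also differed between the groups, in either direction. Summed over 10 hypothalamic markers, levels were 16.1 to 79.2 CPM in amphetamine KO mice, against 87.0 to 183 CPM in saline KO mice. In control mice they overlapped, at 10.9 to 30.9 CPM after amphetamine, against 18.4 to 216 CPM after saline. Summed over 12 markers of striatal projection neurons they were 1890 to 5111 CPM in amphetamine KO mice, against 2838 to 5484 CPM in saline KO mice, and 5240 to 6746 CPM in amphetamine control mice, against 3537 to 4960 CPM in saline control mice. The log2 fold change after amphetamine was below 0 for 11 of these 12 markers in KO mice and for 0 of 12 in control mice, so this list ran in opposite directions in the 2 genotypes. Of 8 oligodendrocyte markers, all 8 were below 0 in KO mice and 5 in control mice. Their sum was 4000 to 6716 CPM in amphetamine KO mice, against 5180 to 7174 CPM in saline KO mice. The sum over 8 microglial markers was 386 to 416 CPM in amphetamine control mice, against 269 to 379 CPM in saline control mice. In KO mice the microglial sum was 335 to 401 CPM after amphetamine, against 350 to 437 CPM after saline. The sum over 10 ependymal markers was 16.2 to 37.4 CPM in amphetamine control mice, against 42.3 to 54.5 CPM in saline control mice. In KO mice the ependymal sum was 33.5 to 58.0 CPM after amphetamine, against 32.1 to 67.6 CPM after saline. Over 8 choroid plexus markers the sum was 31.5 to 688 CPM (median 45.4) in amphetamine KO mice, against 47.0 to 61.5 CPM in saline KO mice. In control mice the choroid plexus sum was 35.1 to 72.5 CPM after amphetamine, against 47.8 to 56.2 CPM after saline. Of 12 cortical projection neuron markers, 2 were below 0 in KO mice and 0 in control mice. All 5 blood markers were below 0 in both genotypes. No listed marker was at 0 in all libraries, and within groups the correlations of the 10 list sums with the mean of the ER chaperones ran from -0.31 to 0.38. Within groups that mean was also lower in libraries with more genes detected (r = -0.661, rho = -0.612, and -0.507 without the 2 mice farthest out). Genes detected ran from 28486 to 29281 in amphetamine KO mice, against 28071 to 28724 in saline KO mice, and from 27591 to 28495 in amphetamine control mice, against 27975 to 28964 in saline control mice. The correlation with total counts was r = -0.589 (rho = -0.470), and -0.306 without the 2 farthest, and with the share of mitochondrial counts -0.539 (rho = -0.379) and -0.179. The part of these marker and library values in the amphetamine comparisons was not tested.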

How the data were processed

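Counts per gene and mouse were the authors' whole-number counts, deposited per library, and the submitters' processing notes list GRCm39, HTSeq 0.6.1p2, STAR 2.6.0c, R 3.6.1, DESeq2, Trim Galore 0.5.0 and FastQC 0.11.5 without roles. Reads of overlapping genes could be shared, as the annotation release and strandedness of the counting (not given in the sources used here) are unknown. In the authors' deposited comparison tables, per the file headers, FPKM values, the base mean (a signal of scaled counts), log2 fold changes, test scores (the Wald statistic) and p-values are the authors' own. The name of the authors' KO amphetamine table says that a library was left out, which was not analysed here. FPKM columns were matched to libraries by their labels. Each column had a Spearman correlation of 0.954 to 0.958 with the counts of its own library. It was not compared with other libraries, so these values do not check the matches.

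Counts were filtered with filterByExpr, scaled by TMM and fitted in edgeR 4.0.16 (R 4.3.3) with the robust quasi-likelihood model as 4 group means over 19 libraries, with a spread estimated over all groups. A gene was called at a Benjamini-Hochberg adjusted p under 0.05 over 21513 genes. The SE is the log2 fold change over the root of F. The script was tested on simulated counts. The alternatives were RLE factors, DESeq2 1.42.0, no filter, at least 1 CPM in at least 4 libraries, only the 2 groups compared, a replicate block, each library left out, and 5 libraries left out. The 10 genes and all lists were chosen with earlier results of these data known. From each list the 3 genes with the smallest p in the averaged amphetamine contrast are named, and the 5 most alike and 3 most opposed genes by within-group correlation. Replicates are separate mice per the labels. No 2 libraries were copies (smallest chi-square per degree of freedom 11.2). Promoter sequences are RefSeq's on GRCm38.p6, searched for exact matches, and no coordinates were converted between builds.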

Additional observations from a re-analysis of the deposited data

Results flagged for a closer look

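In 3 of the 40 groups of values examined (10 genes in 4 groups), a mouse stood apart from the rest of its group by Dixon's test, and chance flags about 1 in 20 such groups. Pdia3 was at 203 CPM in amphetamine control mouse 1, and the nearest of the other mice was at 170 CPM. Pdia4 was at 26.7 CPM in saline control mouse 5, and the nearest was at 41.9 CPM. Pdia6 was at 114 CPM in amphetamine KO mouse 3, and the nearest was at 89.6 CPM.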

How the results depend on the processing

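The median log2 fold change of the 10 ER chaperones after amphetamine ran from -0.35 to -0.26 in KO mice, from -0.21 to -0.14 in control mice and from -0.27 to -0.22 in the averaged contrast when 1 library at a time was left out. Counts of called genes were less stable. In KO mice 0 of the 10 were called by edgeR, 5 by DESeq2, 1 (Hsp90b1) with at least 1 CPM in at least 4 libraries (0.0191% of all genes), 1 (Hsp90b1) with the replicate block (0.0232%), and 0 to 3 with 1 library left out (0.0% to 0.135%), the 3 being without saline control mouse 5 (0.135%). In control mice the count was 0, and 1 with DESeq2. In the averaged contrast it was 3, 7 with DESeq2, 7 without 5 libraries, and 0 to 7 with 1 library left out (0.0137% to 1.25% of all genes). The cause was not tested. Whether mice were paired across groups is not stated. By replicate number, 1 of 27 same-number pairs had a correlation of deviations above 0.1 (range -0.349 to 0.154). The submitters' own library numbers skip a number in amphetamine KO mice, so replicate numbers are shifted against them there. Pairing by those library numbers was therefore not tested by this check or by the block. The block changed no other count of calls among the 10. Small differences changed sign. For Pdia4 in control mice after amphetamine the value was -0.10 without 5 libraries and ran from -0.102 to 0.0666 with 1 left out. For KO over control under amphetamine, without 5 libraries, Hspa5 was at -0.0493, Pdia6 at -0.0270 and Hyou1 at -0.0356. In the same comparison Canx was at 0.00652 with the 1 CPM filter, and with 1 library left out Calr ran from -0.0906 to 0.0299, Canx from -0.0361 to 0.0379 and Pdia6 from -0.0393 to 0.109. Under saline Dnajb11 ran from -0.0353 to 0.0443 and Hyou1 from -0.0350 to 0.0643. The difference of the response for Hyou1 was -0.0471 without 5 libraries and ran from -0.00602 to 0.0969. The ERSE-II count was 0 of 9 when only bases before the start were searched. Fits of only 2 groups give no averaged contrast or difference of responses, so none is given for them.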
